A study of Mus musculus with 30 samples.

Results

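The miR-29 family was followed through the series by its 3 probes, mmu-miR-29a, mmu-miR-29b and mmu-miR-29c, taken by name from a panel of 626 probes of which 566 read mouse miRNAs. The panel was hybridised to 30 RNA samples from male C57BL6 mice in 8 groups. Exosomes were isolated from the medium of cultured mesenteric adipocytes given lipopolysaccharide, LPS, a bacterial cell wall component (MAT-Ad-EX-LPS, n = 3), or phosphate-buffered saline (MAT-Ad-EX-PBS, n = 3), and the cells themselves made up MAT-Ad-LPS (n = 4) and MAT-Ad-PBS (n = 4). LPS was used at 1 µg/ml for 24 h, and the adipocytes had been differentiated in culture from stromal vascular pre-adipocytes of mesenteric fat of mice fed normal chow, so none of the cultures came from fat-fed animals. The tissue groups were abdominal aorta on a high-fat diet with 60% fat (AA-HFD, n = 3) or on normal chow (AA-NCD, n = 3), and mesenteric adipose tissue on the same diets (MAT-HFD, n = 5, and MAT-NCD, n = 5). Diets were given between the ages of 4 and 20 weeks. The labels do not say whether each sample came from its own animal or culture, so the p-values below reflect only how these samples varied, part of which may be technical.

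miR-29a, miR-29b and miR-29c are small RNAs that guide the silencing complex to messenger RNAs matching their seed, the short stretch near the 5′ end that pairs with targets. The family is best known for targeting collagen and other extracellular matrix transcripts, and loss of miR-29 accompanies fibrosis in several organs. In fat cells and other insulin-responsive cells, raised miR-29 has been linked to weaker insulin signalling.

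The mature sequences are shown because the probes have to tell apart RNAs that share a seed and differ at few other bases. They were taken from RefSeq on mouse build GRCm38.p6, and all 3 members matched. The table's names carry no arm and are read here as the 3′ arm, which is what the older names of these miRNAs stand for. The seed, bases 2 to 8, is in capitals.
miR-29a-3p: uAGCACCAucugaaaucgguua
miR-29b-3p: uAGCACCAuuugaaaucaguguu
miR-29c-3p: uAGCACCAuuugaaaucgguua
All 3 members carry the same seed, and no other of the 1679 mature names in the RefSeq table does. With positions counted from the 5′ end and the first-named member's base given first, miR-29a and miR-29c differ by C10U alone over 22 bases. miR-29a and miR-29b differ by C10U, G18A, U21G and A22U, and miR-29b is 1 base longer. miR-29b and miR-29c differ by A18G, G21U and U22A.

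The family is encoded by 4 hairpins in 2 pairs, and each pair holds a copy of miR-29b. Mir29b-2 (chr1:195037040-195037120, plus strand) and Mir29c (chr1:195037547-195037634, plus strand) lie 426 bases apart inside the long non-coding RNA gene A330023F24Rik. Mir29a (chr6:31062660-31062747, minus strand) and Mir29b-1 (chr6:31063023-31063093, minus strand) lie 275 bases apart, with no other annotated gene over them, and their neighbours are the non-coding genes Gm40359 and Lncpint. The hairpins are printed with the mature 3′ arm in capitals, since the results below set miR-29a against miR-29c, which come from different chromosomes, while miR-29b comes from both.
Mir29a: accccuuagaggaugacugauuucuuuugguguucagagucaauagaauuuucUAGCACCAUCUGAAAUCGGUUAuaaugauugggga
Mir29b-1: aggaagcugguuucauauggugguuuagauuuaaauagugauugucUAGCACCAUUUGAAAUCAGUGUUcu
Mir29c: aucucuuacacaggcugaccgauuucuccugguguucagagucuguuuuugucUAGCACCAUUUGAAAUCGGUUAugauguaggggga
Mir29b-2: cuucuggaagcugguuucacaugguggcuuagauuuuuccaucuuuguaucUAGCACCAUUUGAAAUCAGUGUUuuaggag
The mature miR-29b of both loci is identical, so its probe cannot say which locus a signal came from.

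Values are the authors' normalized signals, background-subtracted with a floor of 1. A probe was called detected in a sample above 29.8, the mean plus 2 SD of 240 negative-control values. These controls were spared the factor by which the authors scaled each sample's miRNA values, so a call near the limit depends on that factor. The summed signal of all mouse miRNA probes differed between sample kinds. It was 5753 to 33349 in LPS exosomes and 1796 to 2861 in PBS exosomes, 79830 to 142968 in LPS cells and 70149 to 102148 in PBS cells, 174770 to 287152 in aorta and 270569 to 496704 in mesenteric fat. A level set across kinds is therefore given with its share of the sample's mouse miRNA signal, which does not depend on the scaling of the sample. Fewer cells of a type and less RNA per cell cannot be told apart in such bulk samples. Exosome RNA was also extracted with another kit than tissue and cell RNA.

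miR-29a was detected in every fat, aorta and culture sample. Its signal was 10598, 16925, 14366, 17695 and 16511 in the MAT-HFD samples, against 15460, 17576, 12398, 13557 and 15296 in the MAT-NCD samples. It was 2755, 3914 and 3437 in AA-HFD, against 4753, 2816 and 2632 in AA-NCD. The fat samples all lay above every aorta sample, and on each tissue the diets overlapped. In cultured adipocytes miR-29a was at 4986, 9828, 6555 and 5990 with LPS, against 4120, 5081, 3651 and 5620 with PBS. The culture ranges overlapped each other, and all lay below the fat samples. In exosomes it was at 51.6, 1261 and 3.47 with LPS, against 1.08, 1.00 and 1.00 with PBS, so it was detected in 2 of 3 LPS samples and in 0 of 3 PBS samples.

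miR-29b was detected in every tissue and culture sample as well. Its signal was 1558, 3549, 3125, 4338 and 4094 in MAT-HFD, against 4402, 4366, 3177, 4419 and 2991 in MAT-NCD. It was 889, 1420 and 1199 in AA-HFD, against 1808, 1069 and 790 in AA-NCD. MAT-HFD replicate 1 was the lowest fat sample, within the aorta range. Cultured adipocytes had 1234, 2784, 1962 and 1864 with LPS, against 972, 1353, 1140 and 1523 with PBS. These values overlapped those of the aorta. In exosomes the signal was 9.98, 27.4 and 1.00 with LPS and 1.08, 1.00 and 1.00 with PBS, below the detection limit in every sample.

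miR-29c was the member whose place changed most between tissue and culture. Its signal was 1927, 5498, 4073, 5431 and 4710 in MAT-HFD, against 4032, 4143, 3823, 4092 and 4699 in MAT-NCD. It was 1843, 2689 and 2473 in AA-HFD, against 3168, 1820 and 1626 in AA-NCD. MAT-HFD replicate 1 again lay apart from the other fat samples, inside the aorta range. Cultured adipocytes had only 193.4, 339, 409 and 367 with LPS, against 159, 224, 177 and 344 with PBS. All 8 cultures lay below every tissue sample. In exosomes miR-29c was at 4.19, 36.2 and 1.00 with LPS and at 1.08, 1.00 and 1.00 with PBS, so only 1 sample exceeded the limit. With the authors' factor undone that sample was at 24.6, under the limit.

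**Figure D1:**
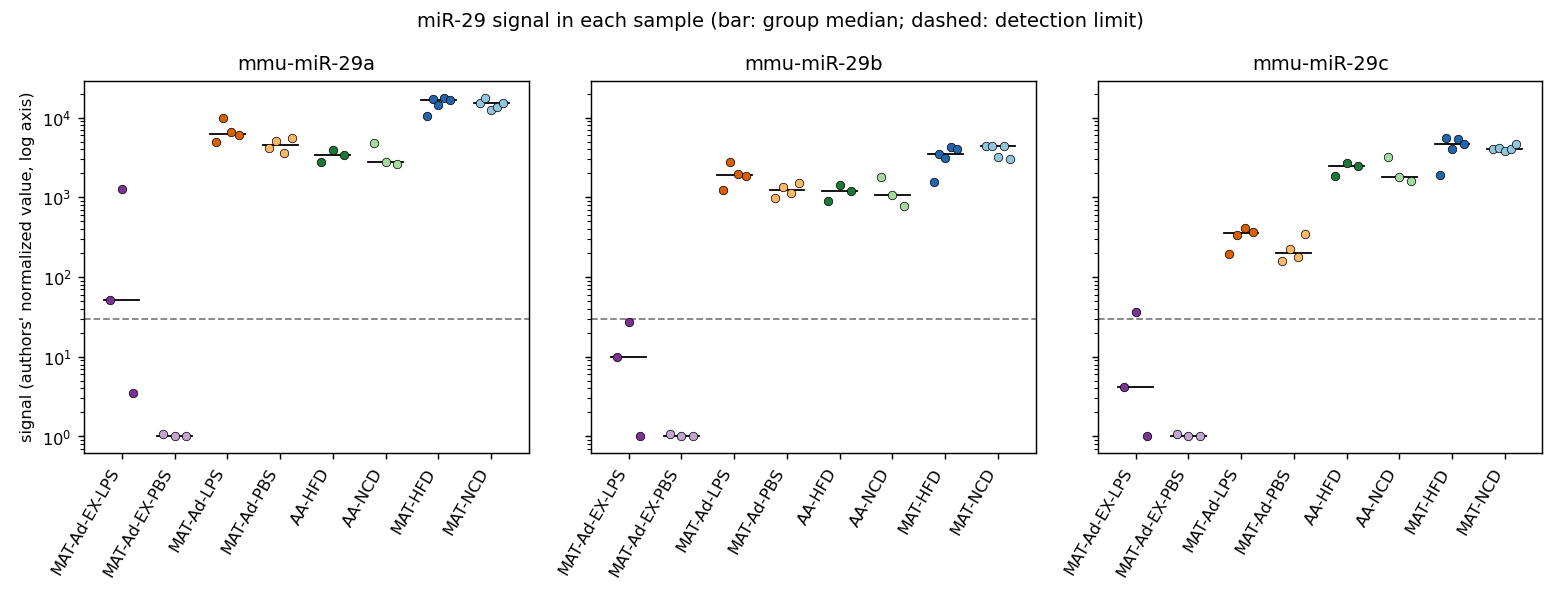
Signal of each miR-29 member in each of the 30 samples on a log axis, 1 panel per member, with the groups of exosomes, cultured adipocytes, aorta and fat from left to right. Points are samples, bars are group medians and the dashed line is the detection limit of 29.8. miR-29c in cultured adipocytes sits between 159 and 409, below every tissue sample, while miR-29a and miR-29b do not drop this far.

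Ordered by mean signal, the groups did not line up in the same way for each member. For miR-29a the order was MAT-HFD (15219 ± 2863), MAT-NCD (14858 ± 1980), MAT-Ad-LPS (6840 ± 2095), MAT-Ad-PBS (4618 ± 895), AA-NCD (3400 ± 1175), AA-HFD (3369 ± 583) and then the exosomes (SD throughout). For miR-29b it was MAT-NCD (3871 ± 722), MAT-HFD (3333 ± 1099), MAT-Ad-LPS (1961 ± 637), MAT-Ad-PBS (1247 ± 241), AA-NCD (1222 ± 526.4) and AA-HFD (1170 ± 266). For miR-29c, aorta came before the cultures, with MAT-HFD at 4328 ± 1463, MAT-NCD at 4158 ± 326, AA-HFD at 2335 ± 439, AA-NCD at 2205 ± 840, MAT-Ad-LPS at 327 ± 93.6 and MAT-Ad-PBS at 226 ± 83.6. Neighbouring groups in these orders overlapped in their sample ranges except at a few steps. For miR-29a the ranges separated below MAT-NCD and on either side of the LPS exosomes. The step from LPS to PBS exosomes lay between 3.47 and 1.08, both under the detection limit, so it shows no separation. For miR-29b the ranges separated only above the exosomes, and for miR-29c below MAT-NCD, below AA-NCD and above the exosomes.

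Because every sample carries its own scale, the balance of the family was measured as the ratio of one member's signal to another's within a sample. Such a ratio is not a ratio of molecules, since each probe has its own efficiency, but it can be compared between samples. In aorta, miR-29c reached 66.9%, 68.7% and 71.9% of the miR-29a signal in AA-HFD and 66.7%, 64.6% and 61.8% in AA-NCD. In fat it reached 18.2%, 32.5%, 28.4%, 30.7% and 28.5% of miR-29a in MAT-HFD and 26.1%, 23.6%, 30.8%, 30.2% and 30.7% in MAT-NCD. In cultured adipocytes it was 3.88%, 3.45%, 6.24% and 6.12% with LPS and 3.86%, 4.4%, 4.84% and 6.13% with PBS. The aorta, fat and culture values formed 3 ranges with no overlap, and the diets or treatments within each kind lay close together.

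miR-29b kept a steadier ratio to miR-29a. It averaged 28.5% ± 2.77 in LPS cells and 27.1% ± 3.13 in PBS cells (SD, n = 4 each), 34.5% ± 2.02 in AA-HFD and 35.3% ± 4.62 in AA-NCD (SD, n = 3 each), and 21.3% ± 4.07 in MAT-HFD and 26.2% ± 4.81 in MAT-NCD (SD, n = 5 each). The ratio of miR-29c to miR-29b followed the ratio of miR-29c to miR-29a, at 17.1% ± 3.95 in LPS cells and 17.8% ± 3.28 in PBS cells, 201% ± 10.01 in AA-HFD and 184% ± 19.3 in AA-NCD, and 130% ± 15.1 in MAT-HFD and 111% ± 28.2 in MAT-NCD. miR-29c thus gave more signal than miR-29b in aorta and about the same or more in fat, and less in every culture.

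**Figure D2:**
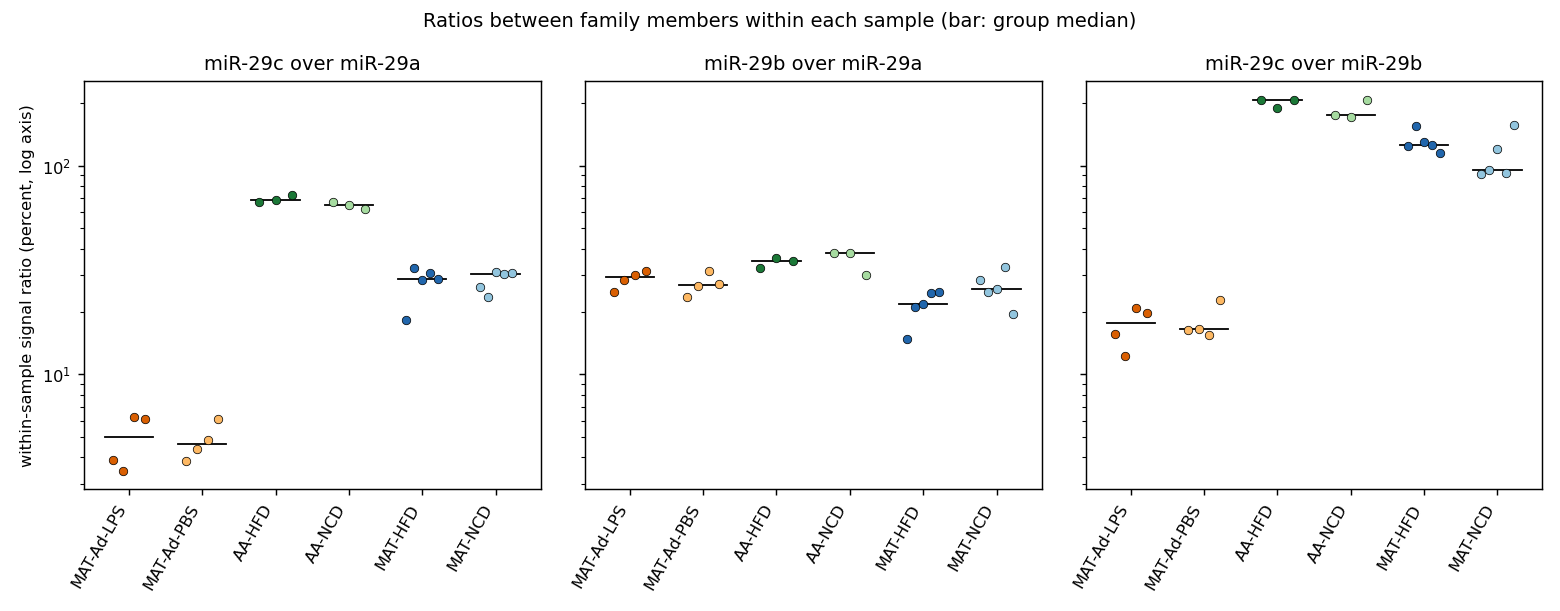
Ratio of 2 members' signals within each sample, in percent on a log axis, for the 24 cell and tissue samples (bars are group medians). For miR-29c over miR-29a the aorta samples sit between 61.8% and 71.9%, the fat samples between 18.2% and 32.5% and the cultures between 3.45% and 6.24%, while miR-29b over miR-29a spans a narrower range.

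These ratios were compared between sample kinds with exact two-sided permutation tests on the log2 ratios. The 9 tests were added after the values had been seen, and p-values were adjusted over the 9 by the Benjamini-Hochberg method. On the log2 scale the ratio of miR-29c to miR-29b follows from the other ratios, so the 9 tests are not independent. Adjusted p-values of 0.0459 lie close to the threshold of 0.05 and depend on which of these tests are counted. The log2 ratio of miR-29c to miR-29a was 1.19 higher in AA-NCD than in MAT-NCD (exact p = 0.0357, adjusted p = 0.0459), higher in 3 of 3 aorta samples than in any fat sample. It was 1.35 higher in AA-HFD than in MAT-HFD with the same p-values and the same lack of overlap. In MAT-Ad-PBS it was 2.56 lower than in MAT-NCD, a 5.91-fold difference (exact p = 0.0159, adjusted p = 0.0459), with all 4 cultures below all 5 fat samples. For miR-29b over miR-29a the difference between MAT-Ad-PBS and MAT-NCD was 0.06, with overlapping samples (exact p = 0.730, adjusted p = 0.730). In aorta against fat it was 0.44 on chow (adjusted p = 0.0804) and 0.71 on the high-fat diet (exact adjusted p = 0.0459). The p-values of 0.0357 and 0.0159 are the smallest these sample numbers allow. Leaving out 1 aorta or 1 fat sample ended these aorta calls, with adjusted p-values from 0.0643 to 0.122, because the smallest possible p then rose, while the log2 difference in miR-29c over miR-29a stayed between 1.13 and 1.42. For MAT-Ad-PBS against MAT-NCD it stayed between -2.69 and -2.47, with adjusted p-values from 0.0459 to 0.0643.

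Neither treatment moved the family's balance past the test. Of 9 ratio comparisons between diets or between LPS and PBS, 0 passed after adjustment over the 9, and the smallest adjusted p was 0.450. The smallest possible exact permutation p was 0.00794 in fat, 0.0286 in LPS against PBS cells and 0.1 in aorta. After adjustment over the 9, no single ratio could therefore pass alone, and those of the aorta could not pass at all. The ratio of miR-29c to miR-29a in aorta was higher in each AA-HFD sample than in any AA-NCD sample, by 0.10 on the log2 scale (exact p = 0.1, the smallest that 3 against 3 samples allow). In LPS against PBS cells the difference was 0.00 for miR-29c over miR-29a (exact p = 0.943) and 0.07 for miR-29b over miR-29a (exact p = 0.486). In MAT-HFD against MAT-NCD it was -0.05 for miR-29c over miR-29a (exact p = 0.786) and -0.30 for miR-29b over miR-29a (exact p = 0.143).

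The differences in level were tested with limma on log2(value + 1) over all detected mouse miRNAs of each comparison, with Benjamini-Hochberg adjustment. Fold changes are on that scale, and a call means an adjusted p under 0.05. In mesenteric fat the question was what the high-fat diet did, and 0 of 3 members passed the test, where 15.3% of 157 miRNAs were called and 14.6% were called higher. miR-29a differed by 0.02 on the log2 scale (95% confidence interval -0.43 to 0.47, adjusted p = 0.930), miR-29b by -0.28 (-0.91 to 0.35, adjusted p = 0.521) and miR-29c by -0.03 (-0.65 to 0.59, adjusted p = 0.930). The intervals allow folds from 0.745 to 1.38 for miR-29a, from 0.532 to 1.28 for miR-29b and from 0.639 to 1.50 for miR-29c. The median miRNA was 0.31 higher in MAT-HFD. With samples centred on their median, miR-29a turned to -0.20 and was still not called.

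As shares of the mouse miRNA signal, all 3 members had lower means in MAT-HFD, and none passed the adjusted test. With the smallest possible exact permutation p at 0.00794, no single member could pass alone after adjustment over the 9 tests. miR-29a took 3.91% ± 0.611 in MAT-HFD and 4.75% ± 0.325 in MAT-NCD (SD, n = 5 each, exact permutation p = 0.0476, adjusted over 9 tests 0.129). miR-29b took 0.849% ± 0.273 in MAT-HFD and 1.25% ± 0.266 in MAT-NCD (exact permutation p = 0.0476, adjusted 0.129). miR-29c took 1.09% ± 0.296 in MAT-HFD and 1.34% ± 0.0945 in MAT-NCD (exact permutation p = 0.0714, adjusted 0.129). The MAT-HFD samples overlapped the MAT-NCD samples for each member. Smooth muscle miR-143 and miR-145 together took 4.67% to 21.6% of the signal in MAT-HFD and 8.55% to 23.9% in MAT-NCD, and their part in these shares was not tested. Red cell miR-451 and miR-486 together took 12.003% of the signal in MAT-HFD replicate 2 and 0.742% to 2.30% in the other 9 fat samples, which enters every other miRNA's share there. Without that sample the share differences were -0.72, -0.37 and -0.25 percentage points for miR-29a, miR-29b and miR-29c (exact permutation adjusted p = 0.180, 0.180 and 0.214).

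MAT-HFD replicate 1 had the lowest signal of all fat samples for each member, and also the highest share of the endothelial miR-126 pair among the fat samples, 11.1% of the miRNA signal against 5.49% to 8.27% in the other 9. Its leukocyte markers summed to 8.53%, and the other fat samples ranged from 1.17% to 7.38%. Without this sample the log2 diet difference was 0.15 for miR-29a, -0.03 for miR-29b and 0.24 for miR-29c (limma adjusted p = 0.522, 0.919 and 0.278). The part of other cell types in the diet values was not tested.

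**Figure D3:**
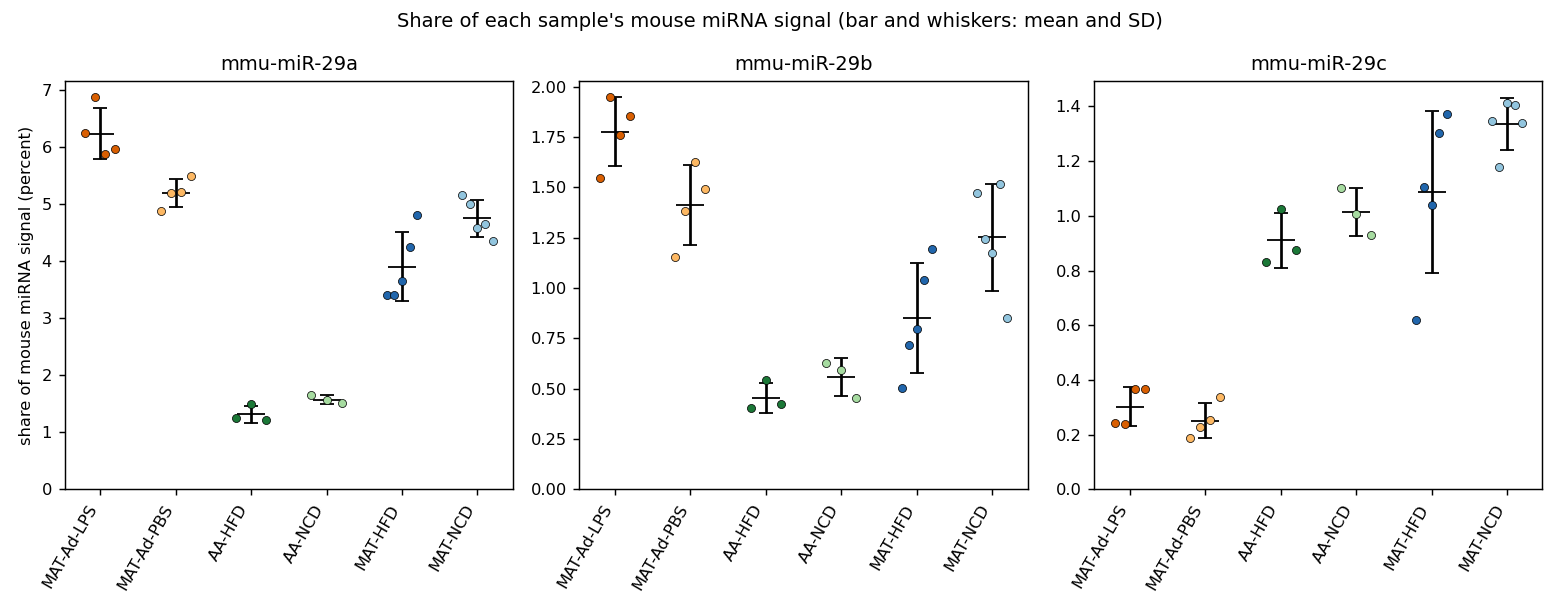
Share of each sample's summed mouse miRNA signal taken by each member, in percent, for cultured adipocytes, aorta and fat (points are samples, bars and whiskers are mean and SD). miR-29a takes 5.87% to 6.87% in LPS cells and 4.89% to 5.50% in PBS cells, and miR-29c takes less in the cultures than in any tissue sample.

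In the aorta the same diet comparison called 0 of 99 miRNAs with limma (0%), and 11 had an unadjusted p under 0.05. miR-29a differed by 0.02 (-0.70 to 0.74), miR-29b by 0.00 (-0.88 to 0.87) and miR-29c by 0.13 (-0.65 to 0.90) on the log2 scale, with adjusted p-values of 0.987, 0.992 and 0.959. The median miRNA was 0.24 higher in AA-HFD, and with samples centred on their median miR-29a and miR-29c turned to -0.17 and -0.07. As shares, miR-29a took 1.24%, 1.49% and 1.22% in AA-HFD, against 1.66%, 1.56% and 1.51% in AA-NCD. The groups did not overlap, and the exact permutation p of 0.1 is the smallest that 3 against 3 allow (adjusted 0.150). Smooth muscle miR-143 and miR-145 together took 27.5% to 31.8% of the signal in AA-HFD and 33.2% to 38.2% in AA-NCD. Their part in the shares was not tested.

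AA-NCD replicate 1 was the highest aorta sample for all 3 members, and it carried the largest scaling factor of the series, 2.40. With the authors' factor undone its miR-29a signal was 1982, against 3015 and 3337 in the other AA-NCD samples, and it became the lowest of its group for each member. Without this sample the log2 diet difference of miR-29b in aorta was 0.32 (limma adjusted p = 0.479). The diet difference itself was also compared between tissues by an interaction term in limma. It was 0.00 for miR-29a, 0.27 for miR-29b and 0.16 for miR-29c (aorta minus fat, log2 scale, adjusted p = 0.999, 0.967 and 0.970), where 1.71% of 175 miRNAs were called.

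In cultured adipocytes each member had a higher mean with LPS, and none passed the test. miR-29a was 1.45-fold (95% confidence interval 0.941 to 2.25), miR-29b 1.53-fold (0.967 to 2.43) and miR-29c 1.46-fold (0.867 to 2.45) its PBS level, with limma adjusted p-values of 0.516, 0.497 and 0.538. Of 98 miRNAs tested, 2.04% were called, 85.7% were higher with LPS, and the median log2 difference was 0.29. Relative to that median, the members stood 0.25, 0.33 and 0.26 higher. Same-numbered LPS and PBS cultures deviated together, so the numbers were taken as pairs. The labels do not tie these cultures, and cultures of unlike number were not compared, so the pairing is an assumption. With the pairs as a block, 8 miRNAs in place of 2 were called, and the members' limma adjusted p-values were 0.210, 0.168 and 0.210.

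Measured as a share, miR-29a took 6.25%, 6.87%, 5.87% and 5.96% in LPS cells, against 4.89%, 5.20%, 5.21% and 5.50% in PBS cells. The groups did not overlap (exact permutation p = 0.0286, the smallest that 4 against 4 allow, adjusted 0.129 over 9 tests). miR-29b took 1.78% ± 0.172 in LPS cells and 1.41% ± 0.199 in PBS cells (SD, n = 4 each, exact permutation p = 0.0571, adjusted 0.129), with overlapping samples. miR-29c took 0.303% ± 0.0727 in LPS cells and 0.252% ± 0.0628 in PBS cells (exact permutation p = 0.257, adjusted 0.289), also with overlap. Taken as numbered pairs, the share was higher with LPS in 4 of 4 pairs for each member, by 0.46 to 1.68 percentage points for miR-29a, 0.13 to 0.56 for miR-29b and 0.0087 to 0.114 for miR-29c. The exact paired sign-flip test, added after the values had been seen, gave p = 0.125 for each, the smallest that 4 pairs allow.

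Aorta was next set against mesenteric fat on each diet. In signal, all 3 members were called lower in aorta on both diets, as were most miRNAs: 71.4% of 175 were called lower on chow and 76.0% on the high-fat diet. On chow the log2 difference was -2.17 for miR-29a (adjusted p = 2.09e-06), -1.73 for miR-29b (adjusted p = 0.000414) and -0.98 for miR-29c (adjusted p = 0.0144), and the median miRNA was at -2.10 (limma). On the high-fat diet it was -2.17 for miR-29a, -1.45 for miR-29b and -0.82 for miR-29c (limma adjusted p = 1.94e-06, 0.00154 and 0.0337), with the median at -2.02. With the numbered samples as blocks, miR-29c was at -0.68 on the high-fat diet and no longer called (limma adjusted p = 0.119). That fit held all the tissue groups, so same-numbered chow and high-fat samples shared a block. It is therefore not a paired test of the high-fat samples. Without MAT-HFD replicate 2, 4 or 5 or AA-HFD replicate 1 or 3, the miR-29c call on the high-fat diet was also lost, with adjusted p-values from 0.0602 to 0.134, and the call on chow was lost without AA-NCD replicate 2 or 3 (limma adjusted p = 0.0621 and 0.0826).

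These directions depended on how the shift of all miRNAs was treated. On chow 3 miRNAs were called higher and 125 lower in aorta, and with samples centred on their median 53 were called higher and 54 lower. On the high-fat diet 76.0% were called lower, as given above, and after centring 55 were called higher and 54 lower. With samples centred on their median, miR-29a was at -0.34 on chow and -0.14 on the high-fat diet in aorta against fat, and it was not called. miR-29b turned to 0.10 and 0.57 and was not called, and miR-29c turned to 0.85 and 1.21 and was called higher in aorta (limma adjusted p = 0.00859 and 0.000628). Scaling on the 100 brightest miRNAs gave miR-29c 0.99 on chow and 1.19 on the high-fat diet. The share of the miRNA signal gave yet another picture for miR-29c, at 1.01% ± 0.0867 in AA-NCD and 1.34% ± 0.0945 in MAT-NCD (SD, n = 3 and 5, exact permutation p = 0.0357, adjusted over 9 tests 0.0643). miR-29a took 1.57% ± 0.0758 in AA-NCD and 4.75% ± 0.325 in MAT-NCD, and miR-29b took 0.558% ± 0.0937 in AA-NCD and 1.25% ± 0.266 in MAT-NCD, with the same exact p and no overlap. On the high-fat diet the shares of miR-29b and miR-29c overlapped between tissues. miR-29a took 1.32% ± 0.151 in AA-HFD and 3.91% ± 0.611 in MAT-HFD (exact permutation p = 0.0357, adjusted 0.0643), with no overlap. miR-29b took 0.456% ± 0.0746 in AA-HFD and 0.849% ± 0.273 in MAT-HFD (exact permutation p = 0.0714, adjusted 0.102). miR-29c took 0.911% ± 0.101 in AA-HFD and 1.09% ± 0.296 in MAT-HFD (SD, n = 3 and 5, exact permutation p = 0.321, adjusted 0.362). Smooth muscle miR-143 and miR-145 alone held 27.5% to 38.2% of the signal in aorta and 4.67% to 23.9% in fat, which enters every other miRNA's share. The direction of miR-29c between aorta and fat thus depended on the scale. The ligation control LIG_POS_A read 50714, 4295 and 5946 in AA-NCD and 7827, 6045 and 8159 in AA-HFD, against 15316 to 30418 in fat. Unlike the other positive controls, LIG_POS_A did not sit on unscaled values. Its readings thus appear to include the authors' factor, which was 2.40 in AA-NCD replicate 1. The part of this control in the lower signal of the aorta was not tested.

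Cultured adipocytes were set against whole fat of chow-fed mice to see how the cells in culture relate to the tissue they came from. miR-29c fell 19.1-fold in MAT-Ad-PBS relative to MAT-NCD (95% confidence interval of the log2 difference -4.79 to -3.72, adjusted p = 7.09e-08), against 3.24-fold for miR-29a (adjusted p = 1.60e-05) and 3.10-fold for miR-29b (adjusted p = 4.37e-05, all limma). Most miRNAs were called lower, 76.8% of 151, and the median log2 difference was -2.77. The calls were 6 higher and 116 lower, and after centring on the median 42 higher and 71 lower. miR-29c was lower than this median by 1.49, and miR-29a and miR-29b were higher than it by 1.07 and 1.13. With samples centred on their median, miR-29a and miR-29b turned to 0.38 and 0.44, and with scaling on the 100 brightest miRNAs to 1.47 and 1.53 (limma adjusted p = 1.07e-05 and 1.43e-05 under this scaling), so their direction depended on the scale. miR-29c stayed lower in culture under each of the 5 other settings, from -4.26 to -1.10, with adjusted p-values of at most 0.000307.

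As shares, the members were also set against the sample's summed signal, into which smooth muscle miR-143 and miR-145 enter with 2.54% to 3.59% in MAT-Ad-PBS and 8.55% to 23.9% in MAT-NCD. miR-29c took 0.252% ± 0.0628 of the signal in MAT-Ad-PBS and 1.34% ± 0.0945 in MAT-NCD, with no overlap (exact permutation p = 0.0159, the smallest possible, adjusted 0.0643). miR-29a took 5.20% ± 0.251 in MAT-Ad-PBS and 4.75% ± 0.325 in MAT-NCD (exact permutation p = 0.0794, adjusted 0.102), with overlapping samples. miR-29b took 1.41% ± 0.199 in MAT-Ad-PBS and 1.25% ± 0.266 in MAT-NCD (SD, n = 4 and 5, exact permutation p = 0.365, adjusted 0.365), again with overlap.

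Markers of several other cell types were also lower in the cultures, in signal or in share. Smooth muscle miR-143 and miR-145 summed to 1998 to 3508 in MAT-Ad-PBS and 24939 to 83721 in MAT-NCD. Both endothelial probes, miR-126-3p and miR-126-5p, were below the detection limit in every culture, and took 5.49% to 6.43% of the signal in MAT-NCD. Both red cell probes, miR-451 and miR-486, and all 4 striated muscle probes were below the limit in every culture. Of the leukocyte probes, miR-142-3p and miR-150 were below it in every culture and averaged 4270 and 11222 in MAT-NCD, while miR-142-5p read 202 to 424 in the cultures and 178 to 358 in MAT-NCD. Of 4 adipocyte markers, 2 exceeded the limit in every PBS culture and all 4 in every MAT-NCD sample, and the list took 1.14% to 1.88% in MAT-Ad-PBS and 1.95% to 2.58% in MAT-NCD. Epithelial markers went the other way in share, at 0.146% to 0.257% in MAT-Ad-PBS and 0.0636% to 0.111% in MAT-NCD, with 4 of 5 probes below the limit in every sample of both groups. The part of these other cells in the miR-29c difference was not tested. Sample kind, the letter of the code that the labels give each sample and, for exosomes, the extraction kit go together and cannot be told apart.

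**Figure D4:**
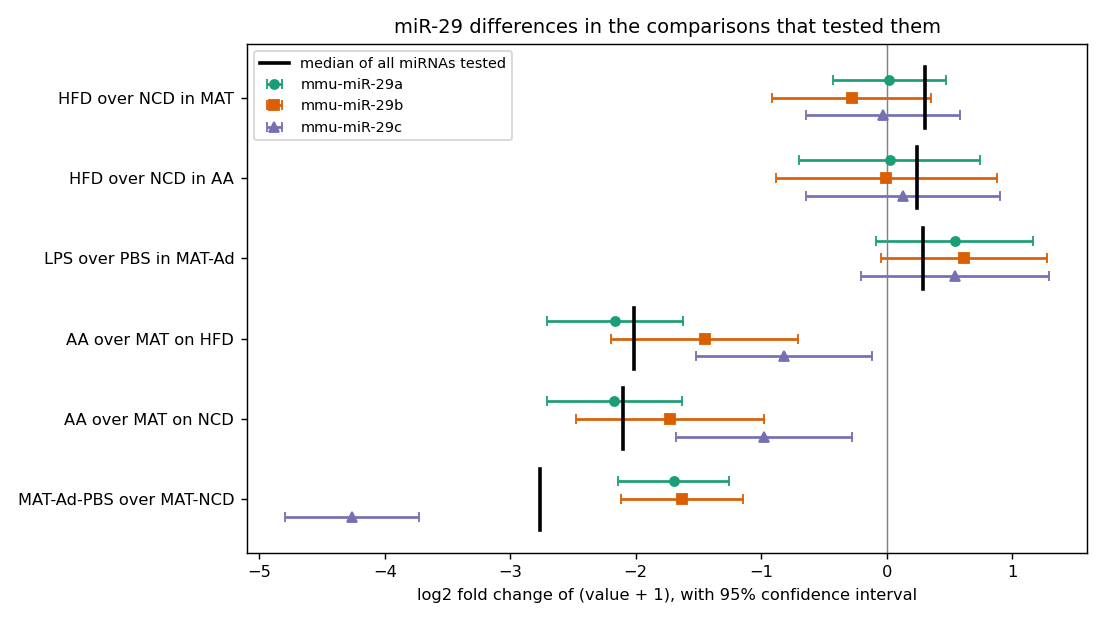
Log2 fold change of each member with its 95% confidence interval in the 6 comparisons of tissues and cells, with the black bar marking the median of all miRNAs tested. The members lie near 0 in the diet comparisons, and in MAT-Ad-PBS over MAT-NCD miR-29c lies at -4.26, below the median of -2.77, with miR-29a at -1.70 and miR-29b at -1.63 above it.

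Exosomes held little miR-29 signal. Values under the detection limit were raised to it, so the folds against cells are lower bounds, and since the members entered these tests through the cells they carry no p. Against LPS cells, miR-29a was at least 53.1-fold lower in LPS exosomes (2 of 3 samples over the limit), miR-29b at least 63.2-fold (0 of 3) and miR-29c at least 9.91-fold (1 of 3), where 70.2% of 114 miRNAs were called lower. Against PBS cells, miR-29a was at least 153-fold lower in PBS exosomes, miR-29b at least 41.2-fold and miR-29c at least 7.24-fold, with 0 of 3 samples over the limit for each member, where 78.9% of 114 were called lower. The exosome samples also had far less signal over all, as given above. With samples centred on their median, the calls were 23 higher and 34 lower in LPS exosomes in place of 3 and 80, and 39 higher and 23 lower in PBS exosomes in place of 0 and 90.

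Shares in exosomes could be compared for fewer members. miR-29a took 0.366% and 3.78% of the miRNA signal in LPS exosome replicates 1 and 2 and at most 0.518% in replicate 3, against 5.87% to 6.87% in LPS cells. It took at most 1.66%, 1.04% and 1.05% in PBS exosomes, against 4.89% to 5.50% in PBS cells, so its share was below that of the cells in every exosome sample. miR-29b took at most 0.211%, 0.0894% and 0.518% in LPS exosomes, against 1.55% to 1.95% in LPS cells. In PBS exosomes the same limit of 1.04% to 1.66% overlapped its 1.15% to 1.62% in PBS cells and lay above the 0.189% to 0.337% of miR-29c, so no difference in these shares was detectable at this signal. miR-29c took 0.109% in LPS exosome replicate 2 and at most 0.211% and 0.518% in replicates 1 and 3, against 0.237% to 0.366% in LPS cells.

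Between LPS and PBS exosomes, the members failed the filter on detected probes and were not among the 26 miRNAs tested, of which 30.8% were called. The mean of the log2 values of miR-29a in LPS exosomes was 2.04-fold the limit that bounds the PBS samples, with the LPS value of 3.47 kept as it was. This mean rested on 2 of 3 samples. With the third (at 3.47) left out, the probe passed the filter through the LPS samples alone, against PBS samples at the floor, and the call it then received is no independent support. The test of whether LPS acted differently in exosomes and cells called 0 of 3 members, where 14.9% of 114 were called. All 3 were at the floor in PBS exosomes, so the size of that difference could not be measured. Without the same LPS sample miR-29a and miR-29b were called, although miR-29b was below the limit in every exosome sample.

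The brightest exosome sample, MAT-Ad-EX-LPS replicate 2, held miR-29a with little signal from its relatives. There miR-29b was at 27.4, below the limit, and taken at the limit it would be at most 2.36% of the miR-29a signal, against 24.8% to 31.1% in LPS cells. miR-29c was at 36.2, which is 2.87% of miR-29a, against 3.45% to 6.24% in LPS cells. It was over the limit only with the authors' factor, and at 24.6 without it. This is 1 sample, and no test was possible. Where miR-29a was bright in this sample, the probe for miR-29c, which differs from it by C10U alone, thus read 2.87% of its signal.

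The members were then placed among the other miRNAs by the shape of their profile over the 6 cell and tissue groups, with samples centred on their median. Likeness was the root mean square difference of the log2 group means over these 6 groups (24 samples), for the 124 probes detected in at least 12 of the samples. Closest to miR-29a were miR-135a (0.200), miR-29b (0.253), miR-25 (0.257), miR-148a (0.298) and the shared probe for miR-20a and miR-20b (0.309). Closest to miR-29b were miR-101b (0.134), miR-135a (0.177), miR-130a (0.250), miR-29a (0.253) and miR-148a (0.296). miR-29c kept other company, with miR-30b (0.209), miR-331-3p (0.263), miR-181a (0.281), miR-301b (0.350) and miR-26b (0.359) closest. Among the 124, miR-29c stood at rank 93 from miR-29a and at rank 90 from miR-29b, with differences of 1.58 and 1.51. These are descriptions over group means that share the same libraries. miR-135a and miR-101b differed by only -0.18 and 0.03 (log2) between LPS exosomes and LPS cells, where the median miRNA was at -3.44. After centring, a probe of even signal reads higher where the sample median is lower, and the part of this in the likeness was not tested.

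**Figure D5:**
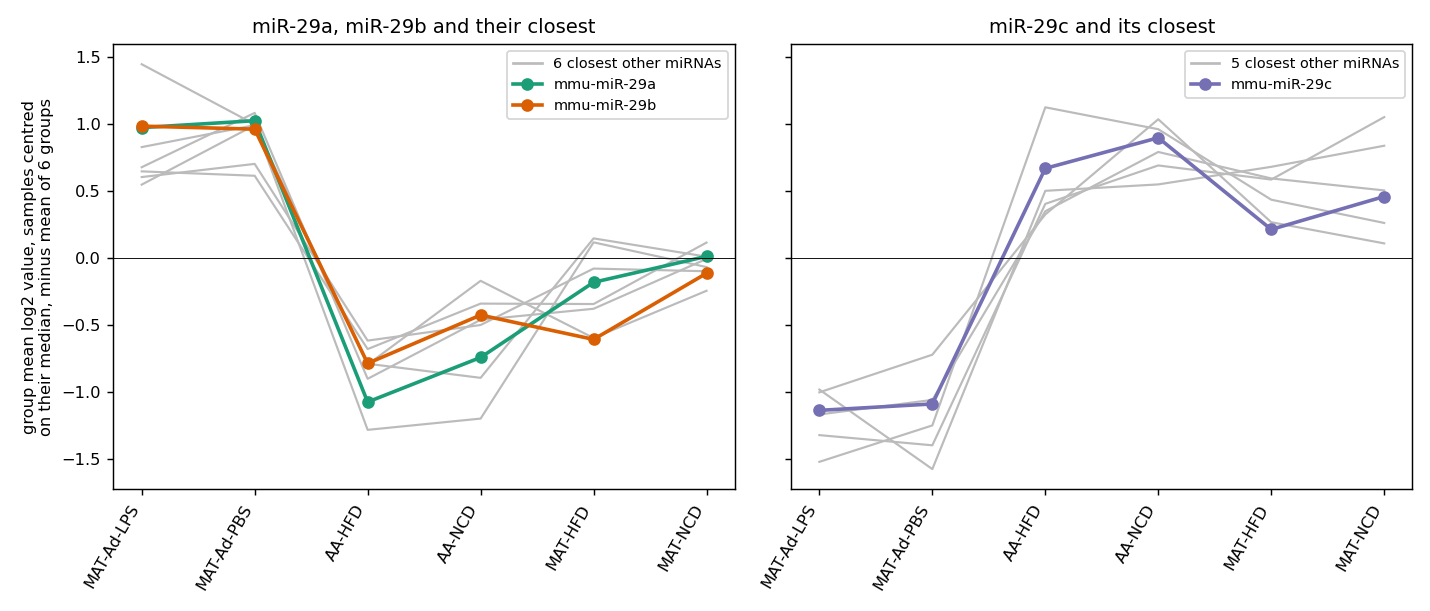
Group means of log2 values, centred on each sample's median and on each miRNA's own mean over 6 groups, for miR-29a and miR-29b (left) and miR-29c (right), with the closest other miRNAs in grey. miR-29a and miR-29b are highest in the cultures and lowest in aorta on the high-fat diet, and miR-29c is lowest in the cultures.

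For context, 2 lists of other miRNAs were read beside the family, 27 linked to fibrosis or TGF-beta signalling and 30 linked to insulin signalling. In MAT-HFD against MAT-NCD, 4 of the 18 fibrosis-linked miRNAs tested rose and 0 fell, with a median log2 difference of 0.08 against 0.31 over all 157, of which 14.6% were called higher. They were miR-382 (132 ± 38.7 in MAT-HFD and 52.8 ± 26.6 in MAT-NCD), miR-199a-5p (2334 ± 647 in MAT-HFD and 1094 ± 218 in MAT-NCD), miR-21 (8077 ± 1582 in MAT-HFD and 4100 ± 1747 in MAT-NCD) and miR-199a-3p (4704 ± 866 in MAT-HFD and 2422 ± 296 in MAT-NCD, SD, n = 5 each), with limma adjusted p-values from 0.0107 to 0.0284. Of 26 insulin-linked miRNAs tested, 8 rose and 0 fell, with a median of 0.41, against the same 14.6% of all miRNAs. The largest were miR-222 (67.3 ± 25.1 in MAT-HFD and below the limit in every MAT-NCD sample), miR-221 (371 ± 92.8 in MAT-HFD and 30.6 ± 16.3 in MAT-NCD), miR-335-5p (1855 ± 359 in MAT-HFD and 184 ± 118 in MAT-NCD) and miR-34a (168 ± 8.84 in MAT-HFD and 78.7 ± 45.7 in MAT-NCD), with limma adjusted p-values of at most 0.0294. miR-222 entered this test through MAT-HFD alone.

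In LPS against PBS cells, 0 of 14 fibrosis-linked miRNAs passed the test, and 1 of 16 insulin-linked ones was called higher, where 2.04% of 98 were called. That was miR-221, at 105 ± 61.3 in LPS cells (SD, n = 4) and below the limit in every PBS culture, so it entered the test through LPS cells alone. In LPS against PBS exosomes, 1 of 3 and 1 of 6 were called, in both lists miR-21, where 30.8% of 26 were called. miR-21 was at 799 ± 608 in LPS exosomes (SD, n = 3) and below the limit in PBS exosomes, so it entered through LPS exosomes alone. No miRNA was called in this comparison without the filter, with samples centred on their median, with the block, or without any 1 of the exosome samples other than MAT-Ad-EX-LPS replicate 3 (0 in place of 8, limma). In the aorta diet comparison 0 of 13 and 0 of 20 passed, as did 0% of all 99. In PBS cultures against chow-fed fat, 12 of 18 fibrosis-linked and 21 of 24 insulin-linked miRNAs fell and 0 rose, with medians of -2.60 and -3.22 against -2.77 over all 151, of which 76.8% were called lower. Between aorta and fat, 11 of 19 and 18 of 26 were called lower on chow and 12 of 19 and 19 of 26 on the high-fat diet, where 71.4% and 76.0% of all 175 were called lower on these diets. Of each list 1 was called higher on chow and 0 on the high-fat diet. Those were miR-199a-3p among the fibrosis-linked (log2 difference 0.79) and miR-27a among the insulin-linked miRNAs (log2 difference 0.85), named after their values were seen. In the test of whether diet acted differently in aorta and fat, 0 of 19 and 2 of 26 passed, where 1.71% of 175 were called. Those were miR-222 and miR-335-5p. In the aorta miR-222 was below the detection limit in every sample and miR-335-5p in every AA-HFD sample, so no size is given. In the test of whether LPS acted differently in exosomes and cells, 3 of 14 and 3 of 17 were called higher (exosome minus cell), where 14.9% of 114 were called. Over all 114, centring on the median gave 5 calls higher and 30 lower in place of 17 calls, so this direction depended on the scale. Against PBS cells, 12 of 14 and 15 of 17 were called lower in PBS exosomes, where 78.9% of all 114 were. Against LPS cells, 9 of 14 and 15 of 17 were called lower in LPS exosomes, where 70.2% of all 114 were. PBS exosomes had 7 to 14 probes over the limit and PBS cells 83 to 100, so list members could pass the filter through the cells alone. The list counts against cells, and those for the LPS effect in exosomes and cells, are therefore no independent support.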

How the data were processed

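RNA was hybridised to a barcoded panel, per the labels' protocols, after tissue and cell RNA and exosome RNA had been extracted with different kits. The deposited signal values were made by the authors and tested here against their own rows: each is background-subtracted with a floor of 1. Each was also multiplied by 1 factor per sample (0.602 to 2.40), from which the negative controls and the positive controls POS_A to POS_E were spared. The ligation control LIG_POS_A did not sit on such unscaled values and appears to have been scaled. All 100% of values under 60 sat on whole steps within 0.1. How the factor was derived and which tool counted the barcodes is not stated in the labels, and since a background was subtracted no count model was used. Per-sample columns left unused numbered 0, and 0 pairs of samples had identical values.

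Values were taken as log2(value + 1). A comparison tested mouse miRNA probes over the detection limit (29.8) in at least as many samples as its smallest group holds, with limma 3.58.1 in R 4.3.3 and Benjamini-Hochberg adjustment. Ratios and shares used exact permutation tests in scipy 1.17.1, and, as a choice made after seeing the data, sign-flip tests over the LPS and PBS culture pairs. For bounds against cells and on shares, exosome values under the limit were raised to it. The limma step was tested on simulated data. Members and lists were chosen with earlier results of these data known. Named outside the family were the 5 closest profiles of each member and up to 4 called members of each list with the largest change. Replicate numbers were checked as pairs by the correlation of deviations from group means: 0.504 to 0.875 in LPS against PBS cells and 0.213 to 0.328 in aorta against fat on the high-fat diet, and in the other comparisons at least 1 number was under 0.1. Alternatives were a pseudocount of 16, no filter, centring on the median, scaling on the 100 brightest miRNAs, the authors' factor undone, a replicate block and leaving out each sample. The number of arrays limits the precision.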

Additional observations from a re-analysis of the deposited data

Results flagged for a closer look

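Of 36 checks for a sample far from the rest of its group, 2 were met, and chance alone flags about 1 group in 20. The ratio of miR-29c to miR-29a in MAT-HFD replicate 1 was 18.2%, and the other 4 MAT-HFD samples lay between 28.4% and 32.5%. This sample also had the lowest signal of each member among the fat samples. The ratio of miR-29c to miR-29b in MAT-Ad-PBS replicate 4 was 22.6%, and the other 3 PBS cultures lay between 15.5% and 16.5%.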

How the results depend on the processing

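Settings other than leaving out a sample gave values of which 191 kept their direction and their side of the threshold, 23 turned and 8 lost the call. Most that turned did so by scaling. Centred on the median and scaled on the 100 brightest miRNAs, in this order, the log2 differences were -0.20 and -0.30 (miR-29a, diet in fat), -0.17 and -0.21 (miR-29a, diet in aorta), -0.070 and -0.11 (miR-29c, diet in aorta), none called. For aorta against fat they were -0.34 and -0.20 (miR-29a), 0.10 and 0.24 (miR-29b) and 0.85 and 0.99 (miR-29c) on chow, and -0.14 and -0.16, 0.57 and 0.55, and 1.21 and 1.19 for the same members on the high-fat diet. For MAT-Ad-PBS against MAT-NCD they were 0.38 and 1.47 (miR-29a) and 0.44 and 1.53 (miR-29b). Centring alone turned the LPS effect in exosomes against cells to -1.05 for miR-29b and -1.21 for miR-29c, fitted values that depend on where the floor lies. With the authors' factor undone, a setting chosen after seeing the data, the diet difference was 0.21 for miR-29c in fat and 0.28 for miR-29b in aorta, and miR-29c in aorta against fat on the high-fat diet was -0.90 and no longer called. Without the filter that last value was -0.82 (limma adjusted p = 0.0709), with more miRNAs to adjust over. A pseudocount of 16 gave -0.025 for miR-29c over miR-29a with LPS. With the replicate block, miR-29c in aorta against fat was -0.84 on chow (limma adjusted p = 0.0663) and -0.68 on the high-fat diet, and the block changed no other call of a member. The block for aorta against fat also joined chow and high-fat samples of the same number. In every comparison, those taken as pairs included, the labels give the samples only a shared number. The paired test of the LPS shares and ratios, a choice made after seeing the data, could not reach a call. Its smallest possible exact sign-flip p with 4 pairs is 0.125. Its values are among the 191, although their side of the threshold was fixed in advance. In aorta against fat 3 pairs are likewise too few for such a test to pass. No paired analysis was possible for MAT-Ad-PBS against MAT-NCD because the labels do not tie cultures to fat samples.

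Leaving out 1 sample at a time gave 667 values, of which 571 kept their direction and side of the threshold. The diet difference ran from -0.041 to 0.15 (miR-29a) and from -0.14 to 0.24 (miR-29c) in fat, and from -0.13 to 0.29, -0.28 to 0.32 and -0.059 to 0.42 for miR-29a, miR-29b and miR-29c in aorta. Its interaction ran from -0.16 to 0.27 for miR-29a and from -0.11 to 0.45 for miR-29c. miR-29c in aorta against fat ran from -1.27 to -0.79 on chow and from -1.09 to -0.66 on the high-fat diet. In LPS against PBS exosomes the fitted value of miR-29a ran from 5.03 to 6.99, and that of the LPS effect in exosomes against cells from 2.38 to 6.45 for miR-29a and from 0.59 to 2.51 for miR-29b. With PBS exosomes at the floor these are neither sizes nor bounds. Log2 ratios ran from -0.12 to 0.092 (miR-29c over miR-29a, diet in fat), -0.14 to 0.029 (miR-29b over miR-29a, diet in aorta), -0.13 to 0.16 (miR-29c over miR-29a, LPS) and -0.18 to 0.082 (miR-29c over miR-29b, LPS). For aorta against fat on chow they ran from 1.13 to 1.23 (miR-29c over miR-29a) and 0.67 to 0.88 (miR-29c over miR-29b), and on the high-fat diet from 1.21 to 1.42, 0.59 to 0.77 (miR-29b over miR-29a) and 0.59 to 0.70. For MAT-Ad-PBS against MAT-NCD they ran from -2.69 to -2.47, -0.038 to 0.15 and -2.75 to -2.49. Fewer samples raise the smallest possible exact p, so the lost ratio calls say nothing about stability.

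Counts of called miRNAs that moved by over 1.5 times were, for diet in fat, 24 against 13 without the filter, 54 with the factor undone, 8 with the block and 8 to 48 leaving out a sample. They were 2 against 5 centred and 8 blocked for LPS in cells (2 to 4 leaving out a sample), 8 against 0 without the filter, centred or blocked and 3 on the 100 brightest for LPS in exosomes (0 to 23 leaving out a sample), 3 against 5 without the filter for the diet interaction (3 to 7 leaving out a sample), 83 against 54 on the 100 brightest for LPS exosomes against cells, and 17 against 10 (pseudocount 16 or factor undone), 5 (no filter) and 35 (centred) for the LPS interaction (9 to 43 leaving out a sample). Diet in aorta gave 0 to 1. Other causes of these shifts were not tested. With 3 to 5 samples a group and exosome signals near the floor, small differences were not detectable.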
